A study of Homo sapiens with 12 samples.

Results

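The regions described here are stretches of H3K27me3 narrower than 50 kb that lie at protein-coding genes and were found in every H3K27me3 library of HepG2/C3A cells. HepG2 is a human liver tumour cell line and C3A is a derivative of it. CUT&Tag, the assay used, tethers a transposase to an antibody on chromatin and sequences the fragments it releases. Cells received 10 mM sodium succinate or control treatment, which the study's design text names a vehicle, for 48 h. The antibodies were against H3K27me3 and, whatever the protein, against lysine carrying a succinyl group (pan-succinyllysine, Ksu), with 2 biological replicates for each antibody and treatment. All groups are of this 1 cell line, and the 4 IgG samples were not used here.

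Peaks of the 4 H3K27me3 libraries on the 24 chromosomes were merged where they overlapped, which gave 16111 union regions. A region was kept when a peak of each library overlapped it, when it was under 50 kb wide, and when it overlapped the body of a RefSeq protein-coding gene by at least 1 bp. These were 2158 regions, 13.4% of the union, and they are called members below. The H3K27me3 peaks themselves chose the members, so their presence, width and place in genes are descriptions. The nearest sets were the 1284 shared regions under 50 kb between genes and the 727 shared regions of 50 kb or more, called broad domains. A further 5234 regions at genes lacked a peak in at least 1 library.

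H3K27me3 is the trimethylated form of lysine 27 of histone H3. It is written by Polycomb repressive complex 2, whose catalytic subunit is EZH2 or EZH1, and removed by the Jumonji-domain demethylases KDM6A and KDM6B. The mark is known for keeping developmental regulators and genes of other lineages silent in differentiated cells, often at promoters rich in CpG dinucleotides. Jumonji-domain enzymes use 2-oxoglutarate and release succinate, and the series title names their inhibition by histone succinylation as its subject.

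Promoter sequences show which kinds of gene start lay inside the members of highest H3K27me3 summit. The 4 below belong to the 4 members of highest summit rank, where they need not lie at the summit itself, and run from 250 bases before to 50 after a RefSeq gene start (GRCh38.p14). Capitals mark CG dinucleotides, the bases that CpG methylation and CpG-island binding proteins use. KCNN1 encodes a calcium-activated potassium channel and its window is chr19:17952007-17952306 on the plus strand. ALPI encodes intestinal alkaline phosphatase, with the window chr2:232455903-232456202 on the plus strand. LOC124902605 is a RefSeq locus beside MUC6, a gastric mucin gene, with the window chr11:1049442-1049741 on the plus strand. ADCY3 encodes an adenylate cyclase and its window is chr2:24919536-24919835 on the minus strand.
KCNN1: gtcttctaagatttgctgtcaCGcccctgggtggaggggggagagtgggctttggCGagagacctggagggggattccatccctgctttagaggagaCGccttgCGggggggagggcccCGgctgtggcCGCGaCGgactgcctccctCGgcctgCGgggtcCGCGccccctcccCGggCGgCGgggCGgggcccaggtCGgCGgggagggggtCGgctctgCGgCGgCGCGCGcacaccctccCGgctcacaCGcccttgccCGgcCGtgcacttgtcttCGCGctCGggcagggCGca
ALPI: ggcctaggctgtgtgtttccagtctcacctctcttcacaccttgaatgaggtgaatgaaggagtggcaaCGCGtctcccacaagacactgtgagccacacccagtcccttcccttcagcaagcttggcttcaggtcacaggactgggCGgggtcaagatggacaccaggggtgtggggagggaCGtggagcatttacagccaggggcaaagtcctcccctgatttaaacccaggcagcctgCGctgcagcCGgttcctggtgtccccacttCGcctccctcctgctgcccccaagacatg
LOC124902605: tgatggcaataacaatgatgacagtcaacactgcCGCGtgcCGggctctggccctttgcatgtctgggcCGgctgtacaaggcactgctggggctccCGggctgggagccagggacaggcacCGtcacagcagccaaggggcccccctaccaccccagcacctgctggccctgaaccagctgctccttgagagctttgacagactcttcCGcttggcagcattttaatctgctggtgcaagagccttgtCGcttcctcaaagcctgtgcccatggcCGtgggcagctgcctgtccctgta
ADCY3: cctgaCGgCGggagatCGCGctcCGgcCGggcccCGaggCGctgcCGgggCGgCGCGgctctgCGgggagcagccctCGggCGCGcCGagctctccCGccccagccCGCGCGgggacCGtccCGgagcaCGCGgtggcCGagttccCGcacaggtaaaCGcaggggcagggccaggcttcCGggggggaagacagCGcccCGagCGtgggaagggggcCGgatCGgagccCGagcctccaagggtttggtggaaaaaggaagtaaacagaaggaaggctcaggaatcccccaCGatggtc
The windows of KCNN1 and ADCY3 held 32 and 36 CG dinucleotides, and those of ALPI and LOC124902605 held 7 and 9. Against the number that base composition alone gives, these were ratios of 0.780 and 0.903 for the former and 0.263 and 0.317 for the latter. The members of highest summit thus contained promoters rich in CpG and promoters poor in it.

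Over all promoters, those in members were poorer in CpG and slightly richer in GC. Members contained 1453 of the 22199 promoter windows in the RefSeq table, and their median observed-to-expected CpG ratio was 0.622 against 0.737 for all windows and 0.595 in broad domains. Promoters under no H3K27me3 peak in any library had a median ratio of 0.751. A ratio above 0.6 together with a GC share above 50% was met by 51.5% of member promoters, 59.8% of all promoters and 49.2% of those in broad domains. Median GC was 64.7% in members and 62.3% overall. The motif CGCGCG, which reads the same on both strands, was in 21.7% of member promoters and 21.4% of all. These shares are descriptions without a test, and a motif match is a match of letters alone.

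In width the members ran from 4776 to 49974 bp, with a median of 22796 bp and quartiles of 16131 and 33381 bp. They summed to 54.2 Mb, 1.77% of the chromosomes. By 10 kb steps of width, 82 members were under 10 kb, 777 from 10 kb, 628 from 20 kb, 382 from 30 kb and 289 from 40 kb to the limit. The narrowest lay in EPHB6, an ephrin receptor gene (4776 bp), in ADARB2 (5677 bp) and in MCF2L2 (6303 bp). Just inside the limit were regions at NEFH, the heavy neurofilament gene (49974 bp), GRID2IP (49955 bp), and SDCBP2 with SNPH (49917 bp). Just outside it were regions at IP6K3 with LEMD2 (50041 bp), MROH7 with TTC4 (50088 bp) and NOS1, the neuronal nitric oxide synthase gene (50111 bp). The limit therefore divides a continuous range of widths.

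The libraries broke the members into peaks to different degrees. In control, 65.2% and 90.2% of members were covered by a single peak, and in succinate 86.1% and 95.1% were. The lists themselves differed in length, with 19133 and 5813 H3K27me3 peaks in control and 9985 and 5531 in succinate. Members held 16.2%, 41.0%, 24.8% and 41.0% of those peaks in the same order. Read depth is unknown for peak lists, so no counting interval is given. The highest point of a member, its summit, was placed closely by the libraries: the median distance between summits was 127.5 bp for the control pair, 189 bp for the succinate pair and 228 to 337 bp (4 pairs) across treatments. Summits of a pair lay within 500 bp of each other in 52.0% to 56.9% of members, so a large share of members had summits further apart.

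Members overlapped 2115 of 20037 protein-coding genes, or 10.6%. A single gene was overlapped by 1744 members (80.8%) and several by 414 (19.2%), with at most 22 genes in a member. Of member bases, 68.7% lay in gene bodies, which take up 41.3% of the chromosomes, and 753 members lay wholly inside genes. The gene overlap is part of the rule, so these shares have no test. Their density per Mb was highest on chromosomes 20 (1.69), 19 (1.62) and 17 (1.30). It was 0.273 on chromosome 4 and 0.0705 on the X chromosome, which had 11 members, and the Y chromosome had none. Chromosome 2 held the largest number, 236. Per 100 protein-coding genes the order differed, since members must lie at genes. Chromosomes 10 (21.8), 20 (20.3) and 2 (18.8) were highest, while chromosome 17 had 9.24 and chromosome 19 had 6.55.

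Gene starts were counted in the members next. Starts were in the RefSeq promoter table for 15843 genes (79.1%), and none on chromosome 8, where 73 members lay. Among the 1541 members whose genes all had a start in the table, 874 (56.7%) held a gene start. For regions at genes in fewer libraries the share was 29.8% of 4096, and for broad domains at genes 72.3% of 382. These shares move with width, since the median was 6714 bp for regions in fewer libraries and 22796 bp for members, and broad domains are wider still. Per Mb the order was reversed, with 38.6 starts in regions at genes in fewer libraries, 26.8 in members, 11.7 in all broad domains and 7.26 over the chromosomes. The start-bearing share of members was 79.7% on chromosome 19 and 44.9% on chromosome 10. Of genes with a start in a member (1118), the median length was 18531 bp and 79.1% of a gene's length was covered, with 437 genes covered wholly. The 451 genes overlapped elsewhere than at their start were longer, with a median of 77190 bp and 20.5% covered. For all genes the median length was 24115 bp.

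Summits lay nearer to gene starts than region centres did. In the 970 members with a start, the median distance from summit to nearest start was 3006 and 3080 bp under control and 2959 and 2926 bp under succinate treatment. From the region's centre it was 4064 bp. Within 2 kb of a start were 36.8% and 37.1% of summits in control, 37.7% and 38.7% in succinate, and 27.8% of centres. These distances were not tested.

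Summit height was read within each library, because the deposited signal was scaled differently from library to library. The relative summit height is the log2 of the highest signal in a region minus the median of that log2 over the 4169 shared regions of the library. It shows where a region stands among shared regions and not how much mark the cells carried. Members with a start had median relative heights of 0.02 and 0.03 in the controls, with 0.06 and 0.06 after succinate. Members without a start had -0.17 and -0.16 in the control libraries against -0.23 and -0.25 with succinate. The difference was 0.24 ± 0.064 (SD, n = 4 libraries) and positive in 4 of 4, with an exact two-sided sign-flip permutation p of 0.13, the smallest that 4 libraries allow. Members as a whole stood above shared regions between genes by 0.12 ± 0.037 (SD, n = 4 libraries; exact permutation p = 0.13). Broad domains stood higher than either, with medians from 0.66 to 0.77. Height also varied with width. The median percentile rank of members was 42.7 under 10 kb, 35.2 at 10 to 20 kb and 66.8 at 40 to 50 kb. Median width was 24056 bp for members with a start, 21469 bp for those without and 20637 bp for regions between genes. The part of width in these height differences was not tested.

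**Figure D1:**
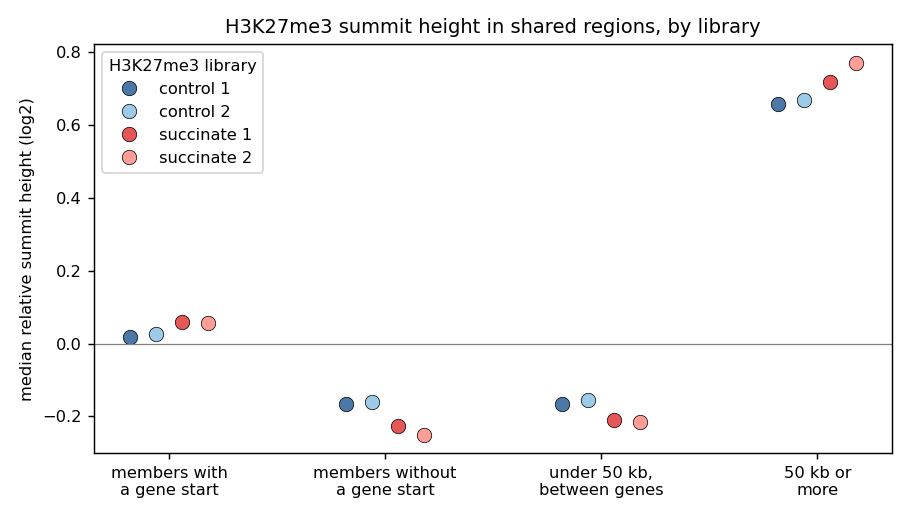
Median relative summit height (log2, vertical axis) of H3K27me3 in 4 sets of shared regions, with 1 point for each of the 4 libraries. Members with a gene start sit at 0.02 to 0.06, members without a start at -0.25 to -0.16, and domains of 50 kb or more at 0.66 to 0.77.

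The members of highest summit were led by KCNN1. Its region, chr19:17947114-17990473, covers the gene's start and had relative heights of 2.48 and 2.31 under control and 2.03 and 2.17 under succinate treatment. By rank it stood at percentile 99.9 and 99.8 of shared regions in control and 99.5 and 99.3 in succinate. The ALPI region, chr2:232429518-232461064, reached 2.05 and 1.89 in the controls, with 2.29 and 2.58 after succinate. ALPI has near-identical neighbours in the alkaline phosphatase cluster, and how reads that match several places were treated is not given in the sources used here. At LOC124902605 and MUC6 (chr11:1022853-1066345) the heights were 2.04 and 2.05 in the control libraries against 1.85 and 2.58 with succinate. The ADCY3 region (chr2:24895875-24934371) had 2.18 and 2.20 under control and 1.99 and 2.04 under succinate treatment. In KCNN1 and ADCY3 both control libraries stood above both succinate libraries, in ALPI below, and at MUC6 the treatments overlapped. None of the 4 passed the test of single regions described below. Over all shared regions, both succinate libraries stood above both control libraries at 27.1% and below at 29%, so such separation was common.

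Next in rank were regions at DOK7, an adaptor of the neuromuscular junction (chr4:3452049-3500807), and at ANTXRL (chr10:46281659-46320800). C16orf74 (chr16:85740237-85763674) followed. Their mean percentile ranks over the 4 libraries were 99.1, 98.9 and 98.7. Each of these 7 regions held a gene start.

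The genes under members came from many families of developmental regulators and of other tissues. Lists of genes were compared by the share overlapped by members, beside 10.6% of all genes, by broad domains, beside 4.47%, and by no H3K27me3 peak in any library, beside 75%. No list was tested for enrichment. Among transcription factors, members overlapped 7 of 9 PAX genes, 48 of 110 homeobox genes outside the HOX clusters (43.6%) and 19 of 50 developmental bHLH genes (38%). They overlapped 2 of 6 GATA, 5 of 17 T-box, 12 of 51 forkhead and 4 of 19 SOX genes. Counted by genes with a known start, members held the start of 7.06% of all genes. They held it for 5 of 8 PAX, 34 of 78 other homeobox and 12 of 37 bHLH genes. For GATA this was 1 of 4, for T-box 5 of 14, for forkhead 9 of 40 and for SOX 1 of 10. Of 39 HOX genes, 9 lay under 3 members and 24 under broad domains.

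Examples among the highest-ranked regions of these families were at regulators of embryonic patterning. HMX2 and HMX3, which act in the inner ear and brain, shared a region (chr10:123116146-123155565) at percentiles 97.0 and 98.0 in the controls, with 99.2 and 99.2 after succinate. EOMES, a factor of mesendoderm and T cells (chr3:27711351-27725170), stood at 95.6 and 96.7 in the control libraries against 93.5 and 94.5 with succinate. PAX6, the eye and forebrain regulator (chr11:31802490-31821145), stood at 92.5 and 92.5 under control and 85.6 and 83.8 under succinate treatment. HAND1, a heart and trophoblast factor (chr5:154467639-154495512), was at 96.9 and 97.8 in the controls, with 86.4 and 88.1 after succinate. FOXL2, the ovarian forkhead factor (chr3:138927263-138964893), was at 89.2 and 93.5 in the control libraries against 90.5 and 83.9 with succinate. PAX6 and HAND1 were lower in rank in both succinate libraries than in both control libraries, while HMX2 with HMX3 was higher. None of these regions passed the test described below. By relative height, 27.1% of all shared regions stood higher in both succinate than in both control libraries, and 29% stood lower.

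Signalling genes also lay under members, counted without splitting ligands from antagonists. Members overlapped 12 of 39 genes of WNT ligands and antagonists, 6 of 22 FGF ligands and 4 of 31 genes of the BMP and GDF list (12.9%, near the 10.6% of all genes). By known start the counts were 7 of 27 for WNT, 2 of 15 for FGF and 1 of 23 for BMP and GDF. The last, 4.35%, was below the 7.06% of all genes. WNT1 and WNT10B, neighbouring ligand genes, shared a region (chr12:48955876-49000253) at percentiles 93.8 and 95.6 under control and 96.7 and 96.1 under succinate treatment. NOG, whose product noggin binds and blocks BMP ligands, lay in a region (chr17:56585878-56606520) at 93.0 and 92.6 in the controls, with 95.7 and 97.0 after succinate. FGF9 (chr13:21666474-21679067) was at 88.3 and 88.1 in the control libraries against 86.0 and 82.2 with succinate. WNT1 with WNT10B and NOG thus ranked higher in both succinate libraries than in both control libraries, and FGF9 lower, again without passing the test. By relative height, both succinate libraries stood above both control libraries at 4 of 14 WNT regions and below at 4. For BMP and GDF these counts were 3 and 1 of 6 regions, and for FGF 1 and 4 of 6. The shares over all shared regions were 27.1% above and 29% below.

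Lists of genes of excitable cells had shares above that of all genes. Members overlapped 16 of 39 sodium and calcium channel genes (41.0%), 21 of 96 potassium channel genes (21.9%), 24 of 111 neurotransmitter receptor genes (21.6%) and 11 of 69 axon guidance genes (15.9%). By known start the counts were 7 of 25, 12 of 72, 14 of 83 and 6 of 59 (10.2%) in the same order, beside 7.06% of all genes. The part of gene length in the overlap was not tested. Of the examples below, the regions of OPRL1 and CACNA1C held no known start of these genes. OPRL1, the nociceptin receptor gene (chr20:64096846-64117705), stood at percentiles 99.3 and 98.5 under control and 97.0 and 97.7 under succinate treatment. GABBR1, a subunit of the GABA-B receptor (chr6:29617762-29640710), stood at 98.7 and 98.9 in the controls, with 96.5 and 93.2 after succinate. CACNA1C, a cardiac and neuronal calcium channel gene (chr12:2280699-2308004), was at 92.3 and 89.4 in the control libraries against 88.0 and 94.7 with succinate. OPRL1 and GABBR1 ranked lower in both succinate libraries, CACNA1C overlapped between treatments, and none of the 3 passed the test. By relative height, both succinate libraries stood above both control libraries at 8 of 40 receptor regions and below at 18. Over all shared regions the shares were 27.1% above and 29% below.

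Lists of clustered genes need care, since a region can count for several genes. The 28 of 89 cadherin and protocadherin genes under members (31.5%) lay in 10 regions, and only 3 of the 70 with a known start had it inside a member. Keratin genes numbered 21 of 55 (38.2%) in 15 regions. The other large clustered families were little covered: 17 of 509 zinc finger genes (3.34%) and 5 of 392 olfactory receptor genes (1.28%), of which 92.7% and 94.6% had no H3K27me3 peak in any library. Cytochrome P450 genes were at 3 of 55.

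The liver identity of the cells was set against the regions. Members overlapped 0 of 18 plasma protein genes of the liver and 0 of 10 housekeeping genes, and no H3K27me3 peak of any library touched these. Of 10 liver transcription factor genes, 2 lay under members, NR5A2 and ONECUT1. Among marker genes of other cells, members overlapped 5 of 10 for blood, including SPI1, ITGAM, CD3E and CD34. Of blood genes with a known start, 1 of 6 had it inside a member, and none of those named did. Members overlapped 2 of 11 genes for stroma and endothelium and 0 of 11 for neurons. Broad domains overlapped 3 of the former and 2 of the latter, and 3 more neuronal genes had peaks only in fewer libraries. None of 11 genes of the PRC2 list and none of 16 Jumonji-domain demethylase genes lay under a member.

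**Figure D2:**
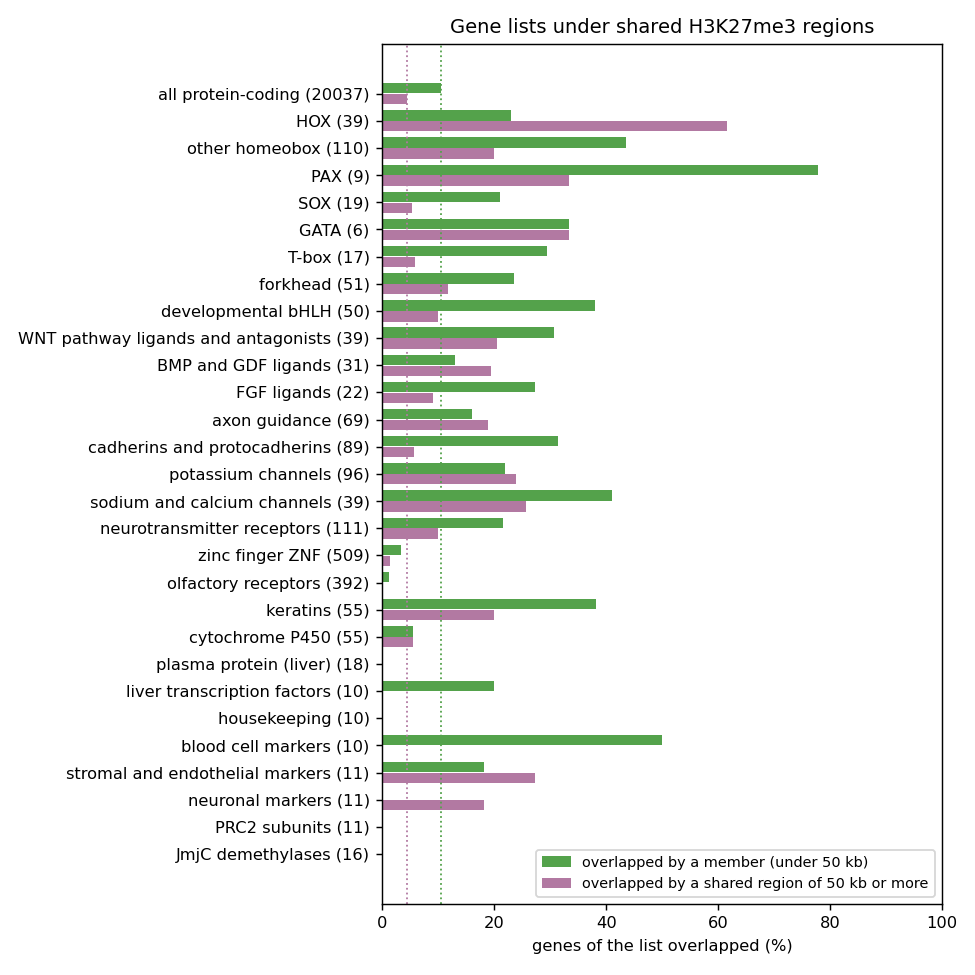
Share of each gene list (%, horizontal axis, number of genes in brackets) overlapped by members and by shared regions of 50 kb or more, with dotted lines at the shares of all protein-coding genes. PAX genes reached 77.8% under members, HOX genes 61.5% under broad regions, and plasma protein, housekeeping, PRC2 and demethylase lists 0 under both.

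The first question about treatment was whether succinate changed how much of each member H3K27me3 peaks covered. The same peak coordinates built the regions, so cover is given as a description with no test. Peaks covered 82.2% and 72.8% of member bases in control and 85.5% and 84.2% in succinate. Both succinate libraries lay above both control libraries, and control replicate 1 lay nearer to them than to control replicate 2. On the log2 scale succinate minus control was 0.13, with a pooled SD of 0.088. It was 0.045 without control replicate 2, 0.22 without control replicate 1 and 0.51 at a common floor, where only peaks above the highest of the libraries' lowest total signals count. With the stronger 50% of each peak list it was 0.13, and the libraries of the treatments overlapped. Covered bases were higher in both succinate than in both control libraries at 683 members (31.6%), where the share over all shared regions was 34.5%. They were lower at 174 members (8.06%), beside 7.08% of all shared regions.

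Relative summit height was then compared for each region with limma over all 4169 shared regions, with Benjamini-Hochberg adjustment. At an adjusted p under 0.05, 38 members (1.76%) stood higher in succinate and 10 (0.463%) lower, beside 1.22% and 0.432% of all shared regions. In either direction this was 48 members (2.22%), beside 1.66%. At an unadjusted p under 0.05 there were 606 members (28.1%), beside 25.3%. Both succinate libraries stood above both control libraries at 595 members (27.6%), beside 27.1%, and below at 655 (30.4%), beside 29%. The median log2 difference was -0.017 in members and -0.0088 in all shared regions, and centring by library keeps it near 0. The counts depended on the measure and on single libraries. Shares over all shared regions were not computed for these alternatives. With the mean signal per covered base, 65 members were higher and 46 lower, and with the total signal 68 and 81, of which 10 and 20 were among the 48. Without succinate replicate 2 the count fell to 5, with 2 higher and 3 lower, and without control replicate 1, control replicate 2 or succinate replicate 1 it was 89, 93 or 67.

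Among members higher in succinate, the log2 difference ran from 0.71 to 1.67 with a median of 0.89. A start in the promoter table lay in 21 of the 38. The rest include members whose starts are unknown, among them the 3 on chromosome 8. The largest was in GSE1, which encodes a coiled-coil protein found with histone deacetylase corepressors (chr16:85160079-85184730). Its relative height was -1.13 and -1.14 under control and 0.55 and 0.50 under succinate treatment, a difference of 1.67 (SE 0.14, limma adjusted p = 0.00507). Peaks covered 41.5% and 57.8% of this region in control and 85.5% and 100% in succinate. PPP2R2C, a regulatory subunit gene of protein phosphatase 2A (chr4:6325453-6358420), had -0.10 and 0.04 in the controls, with 1.23 and 1.52 after succinate, a difference of 1.41 (SE 0.16, limma adjusted p = 0.0184). Neither region held a gene start of the promoter table, and in both the libraries of each treatment lay close together and far from the other treatment.

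HTR3C and HTR3D, subunit genes of the serotonin-gated ion channel, shared a region (chr3:184034645-184061047) that holds the start of HTR3C. Relative height there was -0.63 and -1.01 in the control libraries against 0.52 and 0.61 with succinate, a difference of 1.39 (SE 0.17, limma adjusted p = 0.0232). TIMP2, an inhibitor of matrix metalloproteinases (chr17:78917297-78960192), had -0.06 and -0.05 under control and 1.02 and 1.32 under succinate treatment, a difference of 1.22 (SE 0.16, limma adjusted p = 0.0287). TMEM270 (chr7:73843298-73872974) had -1.09 and -0.67 in the controls, with 0.38 and 0.71 after succinate, a difference of 1.42 (SE 0.19, limma adjusted p = 0.0317).

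Of the 10 members lower in succinate, 4 held a start in the promoter table, and the differences ran from -1.12 to -0.76. For the 1 on chromosome 8 the start is unknown. MC2R, the corticotropin receptor gene (chr18:13910124-13926930), had relative heights of -0.23 and -0.26 in the control libraries against -1.26 and -1.23 with succinate, a difference of -0.998 (SE 0.14, limma adjusted p = 0.0371). GABRR2, a GABA receptor subunit gene (chr6:89280259-89292328), had 0.84 and 0.50 under control and -0.40 and -0.51 under succinate treatment, a difference of -1.12 (SE 0.17, limma adjusted p = 0.0380). MYOM2, a gene of the sarcomere's M-band (chr8:2041196-2068457), had -0.11 and 0.13 in the controls, with -0.88 and -1.30 after succinate, a difference of -1.10 (SE 0.18, limma adjusted p = 0.0380). The remaining 2 of largest statistic were FSTL4 (chr5:133380876-133411675), at -0.86, and PDE8B, a cyclic AMP phosphodiesterase gene (chr5:77207316-77217341), at -0.79, both with an adjusted p of 0.0435 by limma. At PDE8B the heights were 0.79 and 0.67 in the control libraries against -0.09 and -0.03 with succinate. On chromosome 5, which held 96 of the 2158 members, lay 4 of the 10 lower ones, and the fit with the replicate number as a block called none lower.

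Of these 10 named regions, 9 lost their call with the mean signal per covered base, 4 with the total signal and 8 without succinate replicate 2, and none changed direction. The region of GSE1 was the exception under the mean signal per covered base. In the replicate-blocked fit 5 members were called in all.

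**Figure D3:**
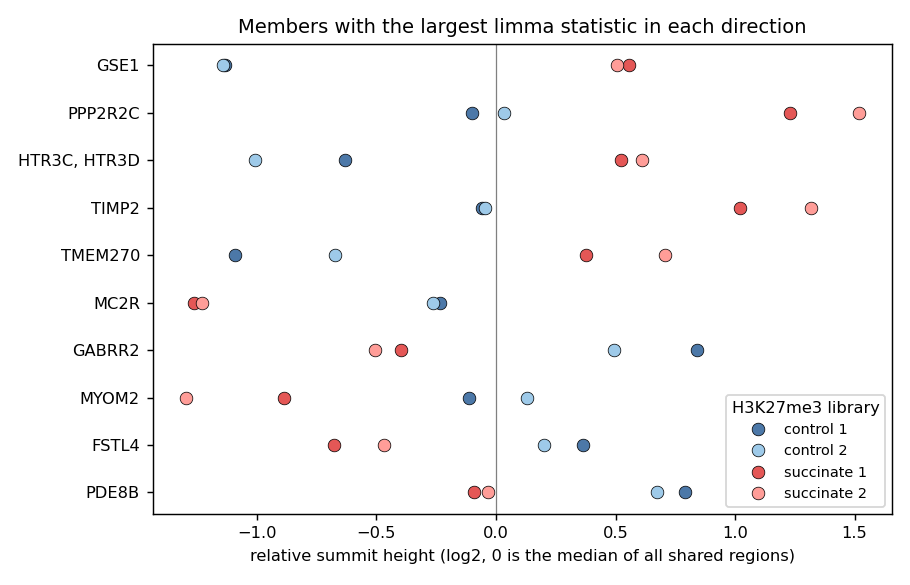
Relative summit height (log2, horizontal axis, 0 is the median of all shared regions of a library) of the 10 members with the largest limma statistics, 5 in each direction, with 1 point for each library. In each row the control and succinate libraries do not overlap, which the choice of these regions fixes, and the rows span differences from 1.67 at GSE1 to -1.12 at GABRR2.

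By gene list, called members were counted beside 1.22% higher and 0.432% lower among all shared regions. Each count of calls named here was a larger share of its list's regions than the share in that direction. These counts rest on few regions, no list was tested, and lists not named here had no called member. Neurotransmitter receptor genes had 40 regions under members, of which 3 were higher (CHRNA2, HTR1D, HTR3C with HTR3D) and 2 lower (ADRA2A, GABRR2), with a median of -0.18. Potassium channel genes had 31 regions with KCNIP1 lower and a median of -0.12. Sodium and calcium channel genes had 34 regions with that of CACNG1 and CACNG4 higher and a median of 0.08. Homeobox genes outside the HOX clusters had 46 regions with that of SIX5 higher and a median of -0.06.

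Heights agreed more closely within treatments than between them. Over the 2158 members, Pearson's r of relative height was 0.906 for the control pair and 0.899 for the succinate pair. It was 0.776 to 0.798 for the 4 pairs across treatments. The points are regions that share libraries, so r is a description and has no p. The SD of the difference between libraries was 0.26 and 0.29 within treatments and 0.39 to 0.43 across. This order did not follow replicate number, since the across pairs of equal number had r of 0.798 and 0.776.

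The difference between treatments varied with the density of genes around a member, a pattern noticed after the data were examined. Density was the number of protein-coding genes whose midpoint lay in the 1 Mb centred on the region, with a median of 11 for members. Spearman's rank correlation between density and the log2 difference in relative height was 0.42 over the 2158 members. It was 0.36, 0.37, 0.37 and 0.38 for the 4 single pairs of a succinate and a control library, and -0.036 and 0.045 for the control and the succinate pair. Leaving out each library gave 0.386 to 0.399. In the libraries themselves, the rank correlation between density and height was 0.04 and 0.02 under control and 0.26 and 0.27 under succinate treatment. The regions share libraries and neighbourhoods, and no p is given.

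In bins of density the order was the same. The 635 members with 1 to 7 genes around them had a median difference of -0.18, with both succinate libraries above at 8.82% and below at 45.2%. The 466 members with 8 to 11 genes had -0.072, with 20.4% above and 35.8% below. For 12 to 19 genes (566 members) the median was 0.035, with 33.0% above and 26.0% below. At 20 to 71 genes (491 members) it was 0.20, with 52.3% above and 11.0% below. Over all shared regions the shares were 27.1% above and 29% below, so the outer bins departed from it in opposite directions. Called members followed the same order, with a median of 20 genes around the 38 higher ones and 6 around the 10 lower ones, although GSE1 had 6.

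Covered extent moved in the same order in the succinate libraries. From the sparsest to the densest bin, H3K27me3 peaks covered 83.7%, 82.9%, 82.3% and 79.8% of member bases in control replicate 1 and 73.5%, 73.5%, 72.6% and 71.6% in control replicate 2. In succinate the shares were 83.1%, 84.5%, 86.5% and 87.9% in replicate 1 and 80.0%, 83.0%, 85.5% and 88.4% in replicate 2. Cover in the densest bin was thus the lowest of the 4 bins in both control libraries and the highest in both succinate libraries.

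The same relation in the other sets was weaker in value. The rank correlation was 0.19 over the 1284 shared regions between genes and 0.24 over the 727 broad domains, and the difference between sets was not tested. Base composition was looked at where a sequence was at hand. Over the 970 members with a start, the rank correlation between promoter GC and the difference in height was 0.11, with 0.072 to 0.137 for pairs across treatments and -0.0075 and -0.055 within. The composition of whole regions was not computed, and the part of GC content in the pattern was not tested.

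**Figure D4:**
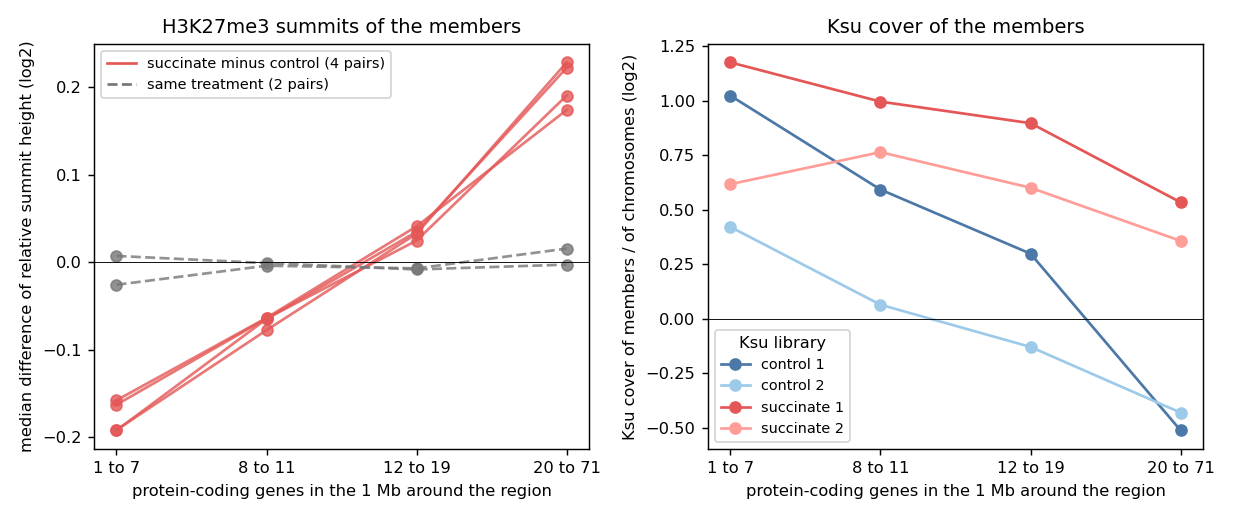
Left, the median difference of relative H3K27me3 summit height (log2) in 4 bins of the number of genes in the 1 Mb around a member, for 4 succinate-minus-control pairs and 2 same-treatment pairs. Right, the Ksu cover of members over that of the chromosomes (log2) in the same bins for each Ksu library. The 4 cross-treatment lines climb from between -0.19 and -0.16 to between 0.17 and 0.23, while the same-treatment lines stay within -0.026 and 0.016.

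Ksu had no part in the choice of members. Ksu peaks covered 3.64% and 6.18% of member bases in control and 11.7% and 16.2% in succinate. The Ksu lists differed widely in length, and the share of the chromosomes under Ksu peaks was 2.63% and 6.07% in the controls, with 6.16% and 10.8% after succinate. As a log2 ratio to that share, members were at 0.47 and 0.03 in the control libraries against 0.93 and 0.59 with succinate, with no overlap between treatments. Succinate minus control was 0.51, above the pooled SD of 0.28 (exact two-sided permutation p = 0.33, the smallest that 4 libraries allow). It was 0.26 when the Ksu share of gene bodies replaced that of the chromosomes (exact permutation p = 0.667), 0.99 at equal numbers of peaks and 1.16 at a common floor. Leaving out each library gave 0.29 to 0.73.

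By region, 909 members (42.1%) had a Ksu peak in all 4 Ksu libraries and 2 had none in any. Ksu peaks in both succinate and neither control library were found at 113 members (5.24%), beside 4.63% of all shared regions, and the reverse at 0. Ksu cover was higher in both succinate libraries at 1326 members (61.4%), beside 66.3% of all shared regions. It was lower at 14 (0.649%), beside 0.528%. These counts follow the lists' lengths and are not corrected for them.

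Members with a gene start had lower Ksu cover than members without in each library. Cover was 2.94% and 5.56% under control and 10.6% and 15.3% under succinate treatment with a start, and 4.85%, 7.14%, 13.8% and 17.3% without. The log2 ratio was -0.41 ± 0.23 (SD, n = 4 libraries) and negative in 4 of 4 (exact two-sided sign-flip permutation p = 0.13, the smallest possible). Members with a start lay among more genes, with a median of 14 in 1 Mb against 11 for all members. Ksu cover of members was lowest in the densest bin in each library, and the part of density in this ratio was not tested. Against shared regions between genes the members had a ratio of -0.18 ± 0.067 (SD, n = 4 libraries; exact permutation p = 0.13), negative in 4 of 4. Members lay among more genes, with a median of 11 in 1 Mb against 7. From the sparsest to the densest bin, members had 5.35%, 3.97%, 3.24% and 1.85% in control replicate 1. Regions between genes had 5.13%, 4.46%, 2.70% and 1.73%. In control replicate 2 the order also varied between bins. In succinate, members were lower in each bin of replicate 1 and, except at 8 to 11 genes, of replicate 2. Without a start the ratio to shared regions between genes was 0.059 ± 0.079 (SD, n = 4 libraries; exact permutation p = 0.13). It fell to 0.021 without control replicate 1, whose own ratio was 0.17 against 0.0013 to 0.047 in the other libraries. Against broad domains the ratio of all members was -0.056 ± 0.086 (SD, n = 4 libraries; exact permutation p = 0.5), negative in 2 of 4.

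Close to the starts, Ksu cover was higher in members than at starts free of H3K27me3, in each library. Within 1 kb of the 1449 starts in members, Ksu peaks covered 2.31% and 5.53% in the controls, with 7.69% and 13.0% after succinate. For the 18259 starts under no H3K27me3 peak the shares were 1.31%, 3.80%, 4.63% and 6.82%. The log2 ratio was 0.76 ± 0.17 (SD, n = 4 libraries) and positive in 4 of 4 (exact permutation p = 0.13). In broad domains the shares around starts were 2.14%, 5.10%, 8.87% and 13.6%, near those of members. Gene density around the starts was not compared between these sets, and its part in the ratio was not tested.

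**Figure D5:**
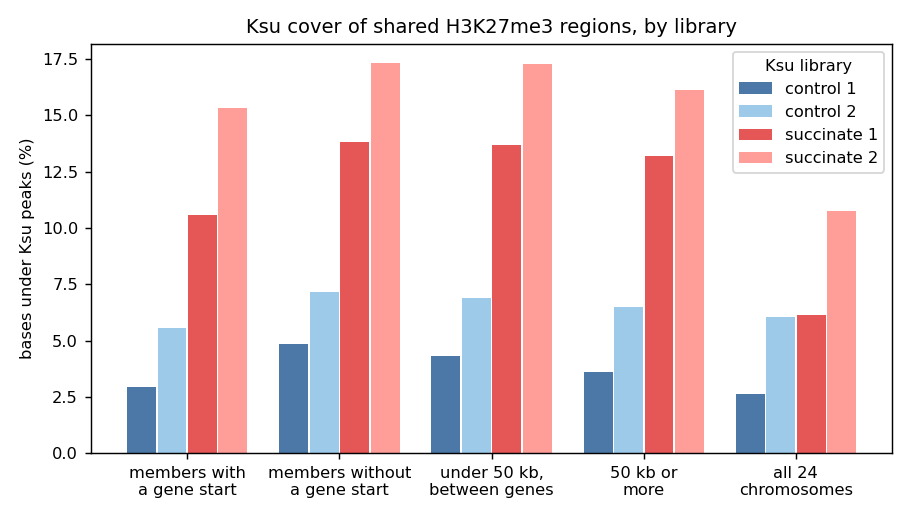
Share of bases under Ksu peaks (%, vertical axis) in members with and without a gene start, in the other shared sets and over all 24 chromosomes, with 1 bar for each Ksu library. In each library members with a start lie below members without, for example 2.94% against 4.85% in control replicate 1.

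Gene density entered the Ksu cover as well. From the sparsest to the densest bin the log2 ratio to the chromosomes was 1.02, 0.59, 0.30 and -0.51 in control replicate 1 and 0.42, 0.06, -0.13 and -0.43 in control replicate 2. In succinate it was 1.18, 1.00, 0.90 and 0.53 in replicate 1 and 0.62, 0.76, 0.60 and 0.36 in replicate 2. The difference between treatments was 0.17, 0.55, 0.66 and 0.92 over the bins. Members among many genes thus had low Ksu in control and the largest difference in succinate, in the bins where relative H3K27me3 height also differed upwards. The other sets had the same order, with 0.29, 0.51, 0.90 and 1.20 in shared regions between genes and 0.24, 0.62, 0.75 and 0.87 in broad domains. Whether the marks are linked was not tested.

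Members of highest Ksu cover were chosen by the mean of the 4 libraries, so their values are descriptions. TOX2, an HMG-box factor gene (chr20:43999641-44046322), had 10.3% and 11.7% in the control libraries against 40.5% and 41.4% with succinate. ARHGAP25 (chr2:68765490-68777678), had 23.3% and 17.8% under control and 29.3% and 32.0% under succinate treatment. ALOX5, which makes leukotriene precursors (chr10:45371626-45390737), had 11.3% and 6.69% in the controls, with 30.04% and 50.8% after succinate. ARHGEF4 (chr2:131000743-131007457) had 9.62% and 0% in the control libraries against 48.1% and 42.8% with succinate. COL4A4, a basement membrane collagen gene (chr2:227126875-227141548), had 30.2% and 19.2% under control and 21.3% and 26.0% under succinate treatment. The treatments overlapped at COL4A4 and were apart at the other 4. Ksu cover was higher in both succinate than in both control libraries at 66.3% of all shared regions.

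The largest log2 increase of Ksu cover, among members with Ksu in every library, was at IL1R2, the decoy receptor gene of interleukin 1 (chr2:101959745-101999846). Cover there was 1.05% and 0.818% in the controls, with 22.1% and 15.6% after succinate. ZNF831 (chr20:59141339-59162201) had 3.31% and 1.02% in the control libraries against 35.4% and 30.4% with succinate. GSG1L, an auxiliary subunit gene of AMPA receptors (chr16:27838202-27862898), had 0.186% and 6.30% under control and 20.2% and 14.7% under succinate treatment. A log2 ranking favours regions of very low control cover, such as IL1R2 in both control libraries and GSG1L in control replicate 1. None of the 3 was called by limma for H3K27me3 height. At IL1R2 it was 0.69 and 0.51 in the controls, with 0.48 and 0.24 after succinate, and at ZNF831 -0.50 and -0.66 in the control libraries against -0.44 and -0.48 with succinate.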

How the data were processed

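Peak lists of 8 CUT&Tag libraries were used, 2 biological replicates per labels for each antibody and treatment. Peaks were called with SEACR on hg38, per the submitters' processing notes, in stringent mode per the file names and separately for each library. The aligner, signal scaling, control track and threshold are not given in the sources used here. The deposited values are signal: the authors' total and highest signal for each peak, which are whole multiples of a step that differs between libraries. Heights were therefore log2 values centred on each library's median, and Ksu shares were divided by the library's share of the chromosomes.

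The members and gene lists were chosen with earlier results of these data known. Genes came from RefSeq GRCh38.p14 (20037 protein-coding genes, 15843 with a start in the promoter table). Named regions are the 8 of highest mean summit rank (1 of them is not reported here), the 5 largest and 5 smallest limma statistics, the 5 of highest mean Ksu cover and the 3 of largest Ksu difference with a peak in every library. In the lists, the top regions by summit rank of a family are given, and the examples among them were picked after their values were seen.

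Tests were limma 3.58.1 (R 4.3.3) with Benjamini-Hochberg adjustment over 4169 shared regions, and exact permutations over libraries (Python 3.11.15, numpy 2.4.6, scipy 1.17.1). The scripts were tested on simulated data. p-values measure the spread between these libraries. Same-numbered libraries had a correlation of deviations of -0.046 over 4169 regions. With 2 libraries per treatment this is a single value, which cannot show whether libraries of a number were handled together. Alternatives were the stronger 50% of each peak list by total signal, equal peak numbers (5531 H3K27me3, 76702 Ksu), a common floor of total signal, merging within 1 kb, presence at 50% cover, 50% of a region in genes, width limits of 30 and 100 kb, the Ksu share of gene bodies as expectation, Ksu peaks of at least 500 bp, other signal measures and normalizations, a replicate block and each replicate left out. The gene density relation and the common floor were added with the data in view, that is, chosen after seeing the data.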

Additional observations from a re-analysis of the deposited data

Results flagged for a closer look

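H3K27me3 peaks outside the 24 chromosomes, on unplaced or other sequences, entered no comparison. There were 33 over the 4 libraries, above the 3 that a count of 0 allows, with 16 and 5 under control and 8 and 4 under succinate treatment. No IgG level was used here, so the count was not set against an antibody background.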

How the results depend on the processing

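Peak lists give no read depth, so what the libraries could not detect is unknown, and 4 libraries allow no exact permutation p under 0.13 for sign flips or 0.33 between treatments. The number of members was 973 with the stronger 50% of each peak list and 1182 at a common floor, fewer by construction, and 2193 to 2690 when each library was left out. The share of members with a gene start was 53.5% to 55.2% with each library left out, against 56.7%, lowest without succinate replicate 2. For the alternative counts of calls that follow, shares over all shared regions were not computed. The number of members called by limma was 111 with the mean signal per covered base, 149 with the total signal, 111 when the members alone were fitted (64 higher and 47 lower) and 76 in the 50% of shared regions with the highest summits (42 and 34). It was 41 with quantile normalization and ranged from 5 to 93 with each library left out. The fit with the replicate number as a block called 5, all higher. Same-numbered libraries had a correlation of deviations of -0.046, which cannot show whether they were handled together. Under that block the exact p of the Ksu cover difference became 0.5, with its value unchanged. Of 241 values computed, 180 were counted as unchanged, 32 moved and 29 lost a call, and no single value changed sign. Unchanged does not bound the size of a value. The H3K27me3 cover difference of 0.51 at a common floor, against 0.13, was counted as unchanged. So were Ksu cover differences of 0.99 and 1.16, against 0.51. The balance of calls did turn, from 38 higher and 10 lower to 68 and 81 with the total signal and to 2 and 3 without succinate replicate 2. Apart from what a setting removes, the cause was not tested.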

Other observations

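Of 1562 RefSeq miRNA hairpins, 66 (4.23%) lay inside members, which cover 1.77% of the chromosomes. Hairpins cluster and often lie in genes, and this share was not tested.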
